A study of Homo sapiens with 3 samples.

Results

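The chemokines CCL2, CCL5, CCL20, CCL22, CCL28, CX3CL1, CXCL9, CXCL10, CXCL11 and CXCL16 were followed in SKBR3 cells given ethanol, estradiol or the peptide ERα17p. The 10 genes were chosen by name, with earlier results of these arrays known, and every probe set that carries one of them as its single gene symbol was taken, which gave 16 of 54675 probe sets and 10 of 19775 genes. SKBR3 is an established human breast cancer line with amplified ERBB2. ERα17p is a synthetic peptide copied from oestrogen receptor α. All cells were first kept for 4 h in 10% serum stripped of steroid hormones with charcoal and then received 0.1% ethanol (vehicle), 1 µM estradiol or 1 µM ERα17p for 3 h. The labels do not say what the peptide was dissolved in, and they give McCoy's medium for growth and RPMI 1640 for the treatment. Each condition had 1 array, so that no difference below has an error, a replicate check or a test, and every value is a description of these 3 arrays.

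Chemokines are small secreted proteins that guide migrating cells through G protein-coupled receptors. They are classed by the spacing of their first conserved cysteines into CC, CXC, CX3C and XC types. CXCL9, CXCL10 and CXCL11 share the receptor CXCR3 on activated T cells and are the classical chemokines induced by interferon γ. Tumour necrosis factor and other activators of NF-kB induce CCL2, CCL5, CCL20 and CX3CL1 in epithelial and other cells.

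Promoter sequence is shown for CCL20, CXCL10 and CXCL11, the genes with an entry that were at least 1.5-fold lower on both treated arrays than on the vehicle array, and for CXCL9, which shares its receptor with the latter pair and was not. RefSeq entries (GRCh38.p14) were found for 6 of the 10 genes. Each line runs 5′ to 3′ along the gene's strand over the 250 bases before its start. Capitals mark matches on either strand to the classical NF-kB consensus of 10 letters and to the interferon response motif GAAANNGAA, and no capital stretch of one motif overlaps the other. The windows are chr2:227813592-227813841 on the plus strand for CCL20, and on the minus strand chr4:76023498-76023747 for CXCL10, chr4:76036071-76036320 for CXCL11 and chr4:76007510-76007759 for CXCL9.
CCL20: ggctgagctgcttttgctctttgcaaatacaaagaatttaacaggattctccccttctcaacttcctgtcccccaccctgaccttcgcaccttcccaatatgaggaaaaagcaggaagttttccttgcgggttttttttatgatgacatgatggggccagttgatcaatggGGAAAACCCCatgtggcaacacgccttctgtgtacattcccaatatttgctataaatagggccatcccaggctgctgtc
CXCL10: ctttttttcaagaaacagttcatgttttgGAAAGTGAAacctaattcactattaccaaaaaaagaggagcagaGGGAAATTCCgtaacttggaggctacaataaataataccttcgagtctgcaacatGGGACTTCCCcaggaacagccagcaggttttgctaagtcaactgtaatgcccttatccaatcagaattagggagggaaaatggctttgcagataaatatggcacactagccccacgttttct
CXCL11: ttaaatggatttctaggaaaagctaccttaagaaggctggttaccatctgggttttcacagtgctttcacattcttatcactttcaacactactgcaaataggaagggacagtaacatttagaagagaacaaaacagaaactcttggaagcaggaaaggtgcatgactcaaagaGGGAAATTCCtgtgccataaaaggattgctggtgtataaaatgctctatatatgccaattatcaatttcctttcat
CXCL9: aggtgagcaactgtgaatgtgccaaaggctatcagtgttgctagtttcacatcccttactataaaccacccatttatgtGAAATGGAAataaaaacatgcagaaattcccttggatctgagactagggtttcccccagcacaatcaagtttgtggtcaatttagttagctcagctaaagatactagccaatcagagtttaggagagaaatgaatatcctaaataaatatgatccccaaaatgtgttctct

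The NF-kB consensus occurred in 9.96% of the 35116 windows of this length in the table, and GAAANNGAA in 6.88%. CCL20 had 1 NF-kB match, on the opposite strand, from 79 to 70 bases before the start. CXCL10 had 2, from 177 to 168 and from 122 to 113 bases before the start, with 1 interferon response motif from 221 to 213. CXCL11 had 1 NF-kB match from 76 to 67 bases before the start. CXCL9 had no NF-kB match and 1 interferon response motif, from 171 to 163. The window of CCL22 held 2 overlapping NF-kB matches, and both windows of CCL28 held neither motif. A further search found the AP-1 motif TGANTCA (6.57% of windows) from 87 to 81 bases before the start of CXCL11. The GAS motif TTCNNNGAA (6.57%) occurred from 240 to 232 bases before the same start. The motif TATAAA (10.7%) occurred in the windows of CCL20, CXCL9 and CXCL11. A match describes letters in this window and shows no binding.

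The deposited values are log2 differences from the authors' own baseline for each probe set. Arrays can be compared within a probe set, whereas expression levels cannot be read or ranked between genes. The vehicle array stood apart. Its standard deviation over all probe sets was 0.27, against 0.12 with estradiol and 0.13 with ERα17p, and 2.35% of genes exceeded the baseline by 1.5-fold or more there. For ACTB the 3′ probe set minus the 5′ probe set, which widens as RNA degrades, gave 0.30 with vehicle, 0.02 with estradiol and -0.04 with ERα17p. For GAPDH the same measure gave 0.05, 0.01 and -0.03. Its part in the results was not tested. Because levels are not given, markers cannot show which cells were present. The 8 luminal markers differed between arrays by -0.17 to 0.28 log2 units, the 7 measured leukocyte markers by -0.38 to 0.45, and none of either list differed by 1.5-fold in any comparison. In bulk RNA fewer expressing cells and less RNA per cell cannot be told apart.

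CCL20, the ligand of CCR6 that attracts immature dendritic cells and Th17 cells, had the widest range. Its probe set 205476_at read 7.12 log2 units above the baseline on the vehicle array, -0.06 with estradiol and 1.29 with ERα17p. The vehicle array was thus far above both treated arrays, and the estradiol array was lowest. Estradiol was lower than vehicle by 146-fold and ERα17p by 57.0-fold, and the estradiol array was 2.56-fold below the peptide array.

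CCL2, the monocyte attractant that signals through CCR2, read 2.80 on the vehicle array, 0.20 with estradiol and 0.91 with ERα17p. The estradiol array was 6.03-fold and the ERα17p array 3.69-fold below vehicle. Its single probe set, 216598_s_at, carries a suffix that marks possible uptake of several transcripts. CCL5, which attracts T cells and monocytes, had 3 probe sets. The probe set 1405_i_at read 1.74, -0.17 and -0.03 on the vehicle, estradiol and ERα17p arrays. The other two read lower with vehicle, at 0.93, 0.19 and -0.20 for 1555759_a_at and 0.92, 0.12 and -0.30 for 204655_at. All 3 were highest on the vehicle array, by 1.68-fold to 3.76-fold over estradiol and by 2.19-fold to 3.40-fold over ERα17p. They disagreed on the order of the treated arrays. Only 1405_i_at had the estradiol array lowest, and it also gave the 3.76-fold and 3.40-fold differences. The suffix of 1555759_a_at marks possible uptake of several transcripts.

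CX3CL1 (fractalkine), made as a membrane-anchored protein that is shed by ADAM proteases, was read by 2 probe sets with nearly the same values. The probe set 203687_at gave 2.35 with vehicle, -0.05 with estradiol and 0.05 with ERα17p, and 823_at gave 2.56, 0.08 and 0.03. Differences from vehicle lay between -2.54 and -2.30 for both treatments and both probe sets. The treated arrays were closer to each other than the probe sets were on the vehicle array, with -0.09 and 0.05 for estradiol minus ERα17p. CXCL16, the other membrane-anchored chemokine and the ligand of CXCR6, had a narrow range, with 0.55 on the vehicle array, -0.09 with estradiol and 0.28 with ERα17p. Only the difference of estradiol from vehicle passed 1.5-fold, at 1.56-fold, just over the threshold.

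Among the CXCR3 ligands CXCL10 read 2.80 with vehicle, -0.03 with estradiol and 0.57 with ERα17p. The estradiol array was 7.09-fold and the ERα17p array 4.68-fold below vehicle. CXCL11 gave 1.51, 0.17 and 0.60 on its probe set 210163_at and 1.77, -0.07 and 0.94 on 211122_s_at. Both probe sets had the vehicle array highest and the estradiol array lowest. CXCL9 did not share the pattern, with -0.00 on the vehicle array, 0.20 with estradiol and 0.11 with ERα17p. On chromosome 4 CXCL9 and CXCL10 are separated by 1 protein-coding gene, ART3, and CXCL10 and CXCL11 are adjacent.

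CCL22, a ligand of CCR4, and CCL28, a mucosal chemokine that binds CCR10 and CCR3, stayed near the baseline on all arrays. CCL22 read -0.05 with vehicle, 0.00 with estradiol and -0.25 with ERα17p. The 3 probe sets of CCL28 lay between -0.11 and 0.16 on all arrays. CCL22 and CX3CL1 are neighbours on chromosome 16 with different values here. With signal over background unknown, a gene near the baseline everywhere may be unexpressed or expressed evenly.

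**Figure D1:**
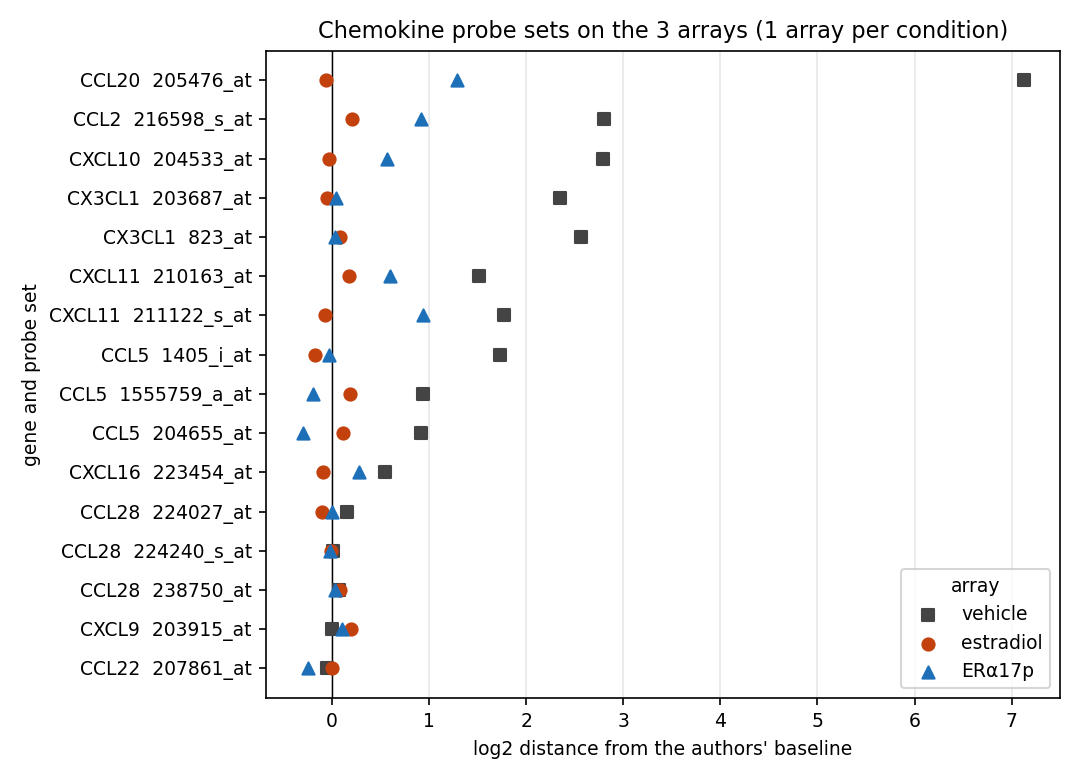
Log2 distance from the authors' baseline (x axis) of the 16 chemokine probe sets (y axis) on the vehicle, estradiol and ERα17p arrays; each point is 1 array. CCL20 spans -0.06 to 7.12, the vehicle array is highest for CCL2, CXCL10, CX3CL1, CXCL11, CCL5 and CXCL16 as well, and CCL22, CCL28 and CXCL9 stay between -0.25 and 0.20.

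Estradiol was set against vehicle to describe which chemokine genes differed between these arrays. By gene value, the median over a gene's probe sets, 7 of the 10 genes were at least 1.5-fold lower (0.585 on the log2 scale) and 0 higher, against 2.93% of all genes lower and 0.809% higher. The choice of the genes used this contrast, so nothing is read from the difference between these shares. The lower genes were CCL20 (-7.19), CXCL10 (-2.83), CCL2 (-2.59), CX3CL1 (-2.44), CXCL11 (-1.59), CCL5 (-0.82) and CXCL16 (-0.64). The median over the 10 genes was -1.20, and 0.03 over all genes. With the baseline in place of the vehicle array 0 of the 10 genes were lower, since the estradiol array itself lay between -0.09 and 0.20 for all of them. After quantile normalization of the 3 columns CCL5 (-0.39) and CXCL16 (-0.48) no longer passed 1.5-fold. The other 5 genes were still lower, but by less, with CCL20 at -3.70, CXCL10 at -1.38, CX3CL1 at -1.17, CCL2 at -1.07 and CXCL11 at -0.78.

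The ERα17p array was compared with the same vehicle array, so both comparisons share it and are no separate evidence. Of the 10 genes 6 were at least 1.5-fold lower and 0 higher, against 2.14% and 0.582% of all genes, a contrast that the choice also used. They were CCL20 (-5.83), CX3CL1 (-2.42), CXCL10 (-2.23), CCL2 (-1.88), CCL5 (-1.13) and CXCL11 (-0.87), with CXCL16 at -0.27. The median over the 10 genes was -1.0, and 0.03 over all genes. Recentring kept these directions, whereas quantile normalization did not keep all of them. After quantile normalization, which forces the wide vehicle column and both narrow treated columns to 1 distribution, 2 genes were lower (CX3CL1 at -1.15 and CCL5 at -0.76) and 2 higher (CXCL11 at 1.38 and CCL2 at 1.14), while CCL20 came to 0.00, CXCL10 to -0.04 and CXCL16 to 0.068. That setting works on ranks within each array, and CCL20 ranked 2 from the highest on both the vehicle and the ERα17p array. Against the baseline 0 were lower and 3 higher, namely CCL20, CCL2 and CXCL11.

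**Figure D2:**
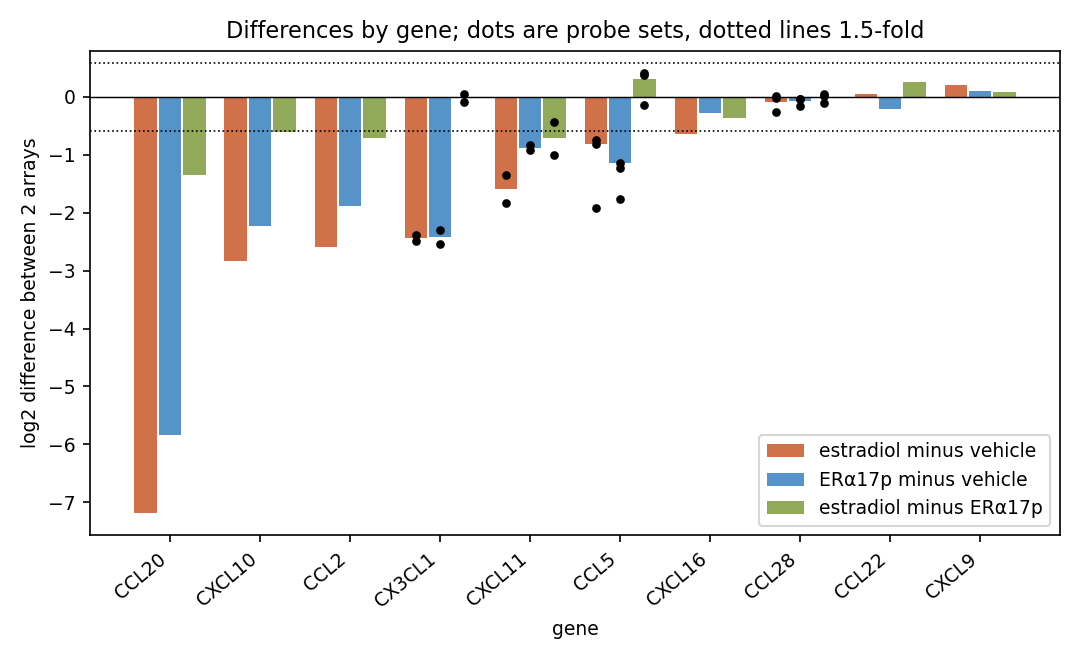
Log2 difference between 2 arrays (y axis) for each chemokine gene (x axis) in the 3 comparisons; bars are gene values, black dots the probe sets of genes with more than 1, and dotted lines mark 1.5-fold. The bars of both comparisons with vehicle are near-equal for CX3CL1 (-2.44 and -2.42) and unequal for CCL20 (-7.19 and -5.83); after quantile normalization ERα17p minus vehicle turned positive for CCL2, CXCL11 and CXCL16 (0.068) and was 0.00 for CCL20.

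The direct comparison of estradiol with ERα17p at equal dose and time does not involve the vehicle array. Here 4 of the 10 genes were at least 1.5-fold lower with estradiol and 0 higher, against 0.207% and 0.147% of all genes, again a contrast used in the choice. CCL20 differed by -1.35, CXCL11 by -0.72, CCL2 by -0.71 and CXCL10 by -0.60, the last just past the threshold. All 4 remained lower after recentring, which shifts all genes alike. After quantile normalization they had -3.70 for CCL20, -2.16 for CXCL11, -2.21 for CCL2 and -1.34 for CXCL10. That setting forces the wide vehicle column and both treated columns to 1 distribution, so these wider values do involve the vehicle array. It keeps ranks within each array, and these genes ranked far higher with ERα17p than with estradiol. Their unchanged direction therefore adds no support. Without probe sets of several transcripts 2 of 9 genes were lower, CCL20 and CXCL10, and CCL2 had no value. CXCL16 had -0.37, CX3CL1 -0.02, CCL28 -0.01, CXCL9 0.09, CCL22 0.25 and CCL5 0.31. Only CCL20 passed 2-fold as a gene. The probe sets of CXCL11 had -1.01 and -0.42, of which the latter, the probe set specific to 1 transcript by its suffix, did not pass 1.5-fold. Those of CCL5 had -0.14, 0.39 and 0.42.

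The estradiol array lay near the baseline for all 10 genes, so that distances of the ERα17p array from the baseline largely restate this comparison and add no support to it. By gene value 3 of the 10 genes, CCL20, CCL2 and CXCL11, exceeded the baseline by 1.5-fold or more with ERα17p, against 0.0657% of all genes. With vehicle 6 did, against 2.35%, and with estradiol 0, against 0.00506%. The choice of the genes used these arrays, and nothing is read from these counts.

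**Figure D3:**
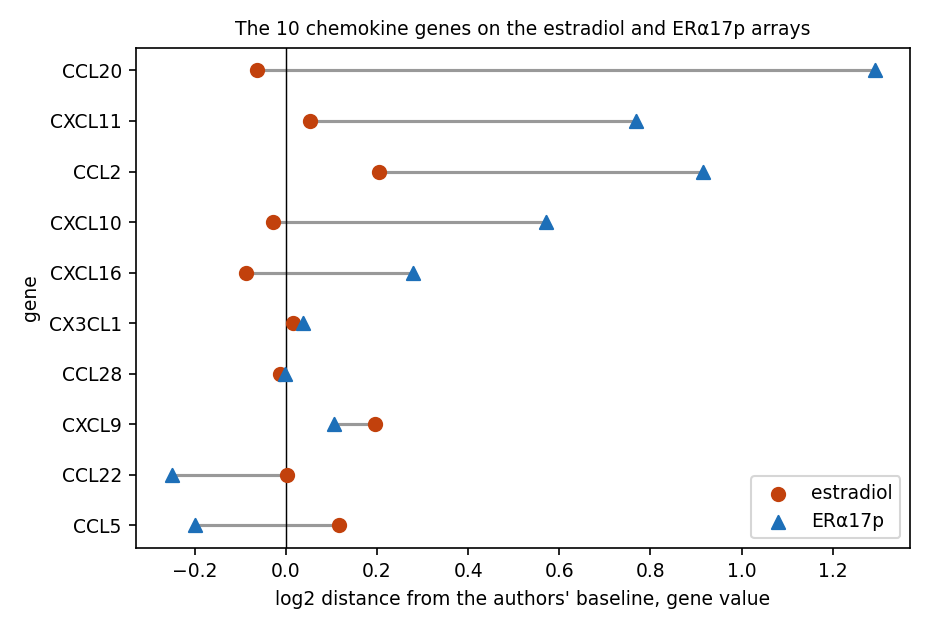
Gene values of the 10 chemokines as log2 distance from the authors' baseline (x axis) on the estradiol array (circles) and the ERα17p array (triangles), joined by a line and ordered by their difference. CCL20, CXCL11, CCL2 and CXCL10 lie 0.60 to 1.35 log2 units higher with ERα17p, while CX3CL1 differs by 0.02 and CCL5 lies the other way.

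Over the 3 arrays, the order vehicle, ERα17p, estradiol from high to low held for 7 of the 10 genes by gene value. The share of all genes with this order was not computed. The choice of the genes used these contrasts, so nothing is read from the count. For CX3CL1 and CCL28 the last step was 0.02 and 0.01 log2 units, too small to order. CCL5 had ERα17p lowest, CCL22 had estradiol highest and ERα17p lowest, and CXCL9 had estradiol highest and vehicle lowest.

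Other genes of the chemokine system were taken from lists written around the 10 genes. By gene value 0 of the 8 measured receptors that bind these chemokines differed by 1.5-fold in any comparison. Their differences ran from -0.33 for CCR6, the CCL20 receptor, with ERα17p against vehicle to 0.35 for CCR2 with estradiol against ERα17p. The probe sets of CCR2 disagreed there, with 0.65 and 0.05, and the larger difference passed 1.5-fold. The 4 atypical receptors, which scavenge chemokines, lay between -0.28 and 0.26. Of 25 other CC, XC and CXC chemokines 20 were measured. The list did not hold CXCL8 and CXCL1, which were lower in all 3 comparisons. Against vehicle CXCL8 had -7.24 with estradiol and -5.28 with ERα17p, and CXCL1 had -6.41 and -5.67. None of the 20 was lower. With estradiol against vehicle 2 were higher, CCL19 (0.79) and CCL24 (0.60), against 0.809% of all genes. The first guides T cells and dendritic cells to lymph nodes and the latter attracts eosinophils. CCL19 was also higher with estradiol than with ERα17p (0.64), against 0.147% of all genes. The medians of this list were 0.18, 0.15 and 0.10 for estradiol against vehicle, ERα17p against vehicle and estradiol against ERα17p, beside 0.03, 0.03 and -0.01 over all genes. None of 6 shedding or trimming enzymes differed by 1.5-fold. ADAM17, a sheddase of CX3CL1, had -0.31 and -0.22 against vehicle.

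Upstream of the chemokines, 3 of 13 inducing cytokine and receptor genes were lower against vehicle, and the same 3 with either treatment, against 2.93% of all genes with estradiol and 2.14% with ERα17p. This list and the next were written with earlier results of these arrays known, and nothing is read from their counts. TNF, a strong inducer of CCL2, CCL20 and CX3CL1, had -5.38 with estradiol and -4.65 with ERα17p. IFNGR1, the ligand-binding chain of the interferon γ receptor, had -0.89 and -0.83, with all 3 probe sets past 1.5-fold in both. IFNGR2, its second chain, had -0.61 and -0.81. IFNG and IFNB1, the ligand genes, were among the 10 that did not differ by 1.5-fold by gene value. TNF alone was lower with estradiol than with ERα17p (-0.73).

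Of 12 NF-kB and interferon transcription factor genes 10 were measured. With estradiol 6 were lower than vehicle (2.93% of all genes), namely IRF1 (-3.68), RELB (-1.55), REL (-1.55), NFKB1 (-1.21), IRF7 (-0.72) and IRF9 (-0.70). With ERα17p 5 were lower (2.14% of all genes), namely IRF1 (-3.33), REL (-1.52), RELB (-1.26), NFKB1 (-1.08) and NFKB2 (-0.59). The probe sets of NFKB2 disagreed, with -1.96, -0.59 and 0.08 for ERα17p. With estradiol they had -1.63, -0.78 and 0.30, so that 2 of 3 passed 1.5-fold there too although the gene value (-0.43) did not. RELA, which encodes the main activating NF-kB subunit, had -0.23 and -0.17. By gene value none differed by 1.5-fold between the treated arrays, where IRF9, part of the interferon-activated ISGF3 complex, came nearest at -0.54. The probe sets of IRF1 disagreed in size there, with -0.65 and -0.06. The larger difference passed 1.5-fold although the gene value (-0.35) did not. Over the 10 genes the medians were -0.71, -0.53 and -0.10 for estradiol against vehicle, ERα17p against vehicle and estradiol against ERα17p, beside 0.03, 0.03 and -0.01 over all genes.

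**Figure D4:**
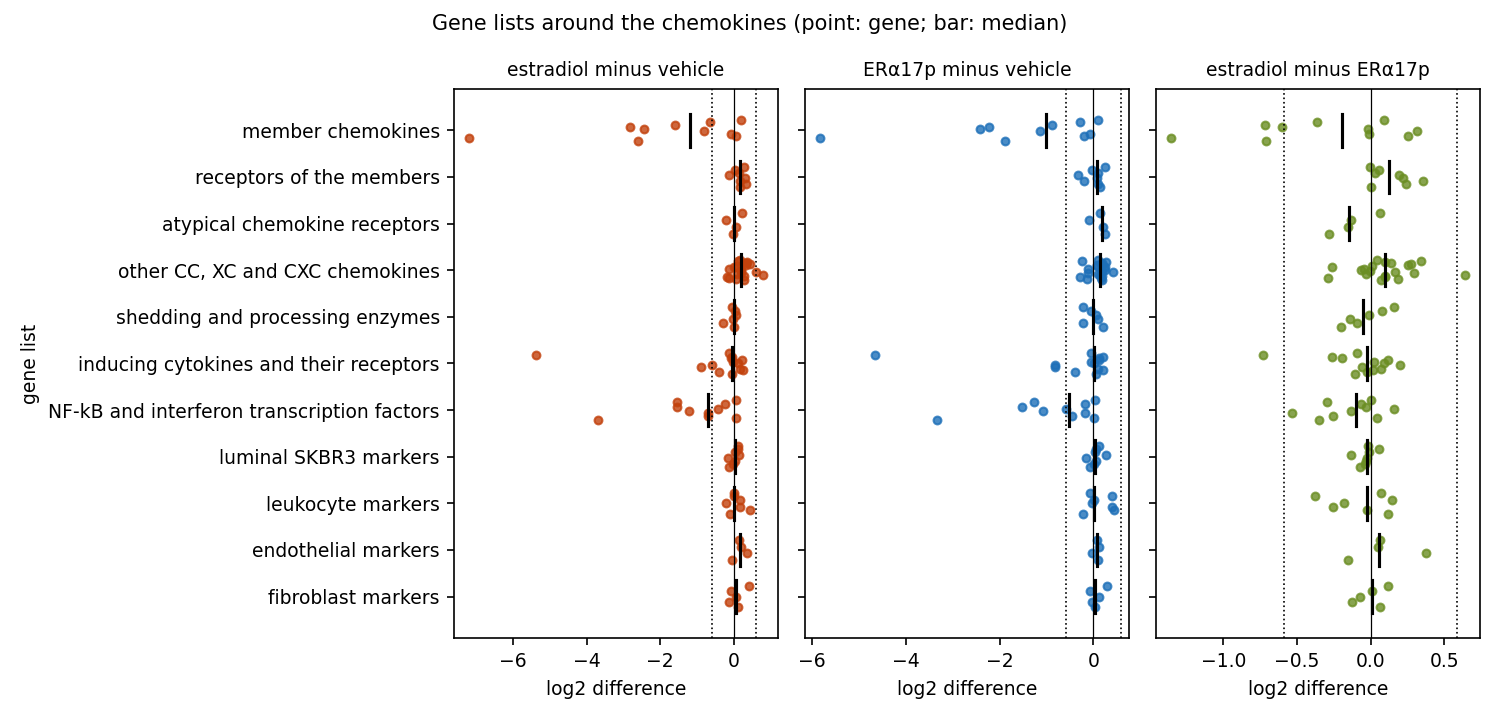
Log2 difference (x axis) of every measured gene (points) in the 10 chemokines and the 10 lists written around them (y axis), with list medians as black bars and 1.5-fold as dotted lines; 1 panel per comparison, with its own scale. Chemokine receptors, atypical receptors, shedding enzymes and cell markers stay within 1.5-fold by gene value. TNF (-5.38 with estradiol) and IRF1 (-3.68) lie far to the left in both comparisons with vehicle.

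For each chemokine that differed by 1.5-fold in any comparison, the 3 most alike other genes were taken by the Euclidean distance over the 3 differences, which rest on 3 arrays. Nearest to CCL20 were CXCL8 (distance 0.82), CXCL1 (1.0) and the adhesion gene SELE (1.87). CX3CL1 was nearest to PLK2 (0.14), GCNA (0.14) and PLAU (0.16). By gene value none of these differed by more than 0.11 between the treated arrays, where the probe sets of PLAU disagreed (-0.17 and 0.08). CXCL10 was nearest to NOD2 (0.31), SERPINA3 (0.33) and FBLN5 (0.35). CCL2 was nearest to GADD45A (0.30), FBXO32 (0.52) and INHBA (0.55), and CCL5 to RGS16 (0.11), EPOP (0.15) and CSRNP1 (0.16). CXCL11 was nearest to SLC7A11 (0.04), PFKFB3 (0.27) and ARRDC3 (0.33). The probe sets of INHBA, RGS16 and SLC7A11 disagreed in sign for estradiol against vehicle. CXCL16, with its small differences, was nearest to CRADD-AS1, MICOS10P1 and MIR4290HG, at 0.05 to 0.07.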

How the data were processed

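RNA of 3 SKBR3 samples was labelled with biotin and hybridised to 1 whole-genome Affymetrix array each, per the labels' protocols. The authors computed the values with RMA, per the submitters' processing notes, with no version given in the sources used here. As RMA yields log2, the deposited numbers were taken as log2, although no source names the base. They are centred near 0: column medians were -0.02, -0.00 and 0.00 for vehicle, estradiol and ERα17p, and in 3979 probe sets (7.28%) 2 columns were mirror images around 0 within 1e-06 (values over 0.001). Arrays beyond these 3 may have entered that baseline. Signal over background is unknown, so no filter on dim probe sets was set, and precision is limited by the number of arrays.

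Gene symbols came from the platform annotation, updated by Entrez ID (GRCh38.p14 gene table): 41091 had 1 symbol, 1801 several, and 62 controls were left out. Entrez IDs matched for 41037, and for all 16 chemokine probe sets. Probe sets of 1 gene were combined by their median. Differences between 2 arrays were counted at 1.5-fold, with no test. Named were all 10 chemokines, list genes with the largest differences, called genes of a list and the 3 most alike genes. IFNG, IFNB1, IFNGR2, RELA, IRF7, IRF9 and NFKB2 were named in part after their values were seen. Members and lists were chosen with earlier results of these data known. Scripts (Python 3.11.15, pandas 2.3.3) were tested on simulated data. Alternatives were the mean over probe sets, omission of probe sets of several transcripts, recentring, quantile normalization, the baseline as reference and a 2-fold threshold.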

Additional observations from a re-analysis of the deposited data

How the results depend on the processing

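Recentring each array on its median and the mean over probe sets kept all 30 chemokine differences on their side of 1.5-fold, each setting by itself. Without probe sets of several transcripts CCL2 had no value, and 2 of 9 genes were lower with estradiol than with ERα17p in place of 4 of 10, with CXCL11 at -0.42; at 2-fold 1 was. Quantile normalization of the centred columns left 2 genes lower with ERα17p against vehicle in place of 6, turned CCL2 to 1.14 and CXCL11 to 1.38, and took 4 differences below 1.5-fold. By its construction it gives the vehicle column the same spread as the treated ones. With the authors' baseline in place of the vehicle array, 0 genes were lower with either treatment. That baseline may hold the arrays compared with it here, so it is no independent reference, and values near 0 give no direction. Differences of at least 1.5-fold that changed sign there were, with estradiol, CCL2 (0.20), CCL5 (0.12), CX3CL1 (0.017) and CXCL11 (0.052), and with ERα17p, CCL2 (0.91), CCL20 (1.29), CX3CL1 (0.037), CXCL10 (0.57) and CXCL11 (0.77). CXCL16 with ERα17p, which had not passed 1.5-fold, went from -0.27 to 0.28. Every comparison with vehicle thus rests on 1 array that cannot be left out. No paired analysis was possible because each group has 1 array.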

Other observations

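Genes next to the chemokines on their chromosomes were looked at after the chemokine values were known. The 3 protein-coding genes on either side of each chemokine gave 43 genes that are not among the 10, of which 38 were measured. With estradiol against vehicle 1 of the 38 was at least 1.5-fold lower, HMGCS1 (-1.05), a gene of cholesterol synthesis beside CCL28, against 2.93% of all genes. With ERα17p 2 were lower, PLLP (-0.62), beside CCL22, and HMGCS1 (-0.60), against 2.14%. None differed by 1.5-fold between estradiol and ERα17p. Chemokine genes beside those that differed were among them. CCL7, CCL11 and CCL8, which follow CCL2 on chromosome 17, had 0.08, 0.04 and 0.33 with estradiol against vehicle, where CCL2 had -2.59. CCL17, beside CX3CL1 (-2.44), had -0.18. ART3 and NUP54, on either side of CXCL10 and CXCL11, had -0.08 and -0.25.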
